A study of Rattus norvegicus with 6 samples.

Results

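Connexins and pannexin 1, the subunits of gap junction channels and of a related large-pore channel, were examined in cultured primary rat Schwann cells after Raf activation. The members were picked by gene symbol from a list of 9 genes (Gja1, Gjb1, Gjc3, Gjb2, Gjb6, Gja4, Gja5, Gjc1 and Panx1), with results of these arrays already known. The annotation used here gave 13 probe sets for 8 of them, out of 14217 genes on the array. No probe set was listed for Gjc3, which is not analysed here. The cells came from rat sciatic nerve and carried RafER, a tamoxifen-inducible form of the kinase Raf. After a day in minimal medium they received the ethanol vehicle or tamoxifen for 24 h in 3 independent experiments, giving 3 vehicle and 3 tamoxifen arrays. All 6 samples carried RafER, and cells without it are not analysed here, so what tamoxifen does by itself cannot be told apart from what active Raf does. The source labels speak of control and treated rats, while the design text puts the treatment in culture. The strain and age of the animals and the promoter driving RafER are not given in the sources used here.

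Connexins assemble into hemichannels in the plasma membrane, and hemichannels of neighbouring cells, or of adjoining wraps of myelin within one Schwann cell, dock to form gap junctions that pass ions, second messengers and metabolites. Gjb1 encodes connexin 32, found in the non-compact myelin of Schwann cells and mutated in an X-linked form of Charcot-Marie-Tooth neuropathy. Gja1 encodes connexin 43, the most widely expressed connexin and a known substrate of ERK, the kinase at the end of the Raf cascade. Pannexins do not usually dock between cells and form channels that release ATP.

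Promoter sequences are shown for 3 members: Gja1, which had the largest difference of the family, Panx1, which had a small one, and Gjb1, the myelin connexin. Each runs 5′ to 3′ on the gene's own strand from 250 bases before to 50 bases after the start site in RefSeq (build GRCr8). RefSeq promoters were found for 8 of the 9 members, Gjc1 having no entry. Capitals mark the AP-1 motif TGAGTCA in Gja1 and the ETS core CCGGAA, on either strand, in Panx1.
Gja1, chr20:36302314-36302613, plus strand: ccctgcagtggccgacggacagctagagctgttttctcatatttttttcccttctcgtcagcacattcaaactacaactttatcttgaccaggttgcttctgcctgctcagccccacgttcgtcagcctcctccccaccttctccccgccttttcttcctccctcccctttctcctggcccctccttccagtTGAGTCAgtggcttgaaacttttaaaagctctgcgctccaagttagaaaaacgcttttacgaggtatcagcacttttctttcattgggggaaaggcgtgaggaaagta
Panx1, chr8:20171151-20171450, minus strand: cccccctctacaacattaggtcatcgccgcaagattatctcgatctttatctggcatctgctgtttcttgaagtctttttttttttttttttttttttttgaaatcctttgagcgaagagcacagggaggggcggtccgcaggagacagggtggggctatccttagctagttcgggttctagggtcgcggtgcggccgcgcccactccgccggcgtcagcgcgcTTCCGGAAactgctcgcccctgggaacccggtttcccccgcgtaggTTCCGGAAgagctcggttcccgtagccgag
Gjb1, chrX:70541595-70541894, plus strand: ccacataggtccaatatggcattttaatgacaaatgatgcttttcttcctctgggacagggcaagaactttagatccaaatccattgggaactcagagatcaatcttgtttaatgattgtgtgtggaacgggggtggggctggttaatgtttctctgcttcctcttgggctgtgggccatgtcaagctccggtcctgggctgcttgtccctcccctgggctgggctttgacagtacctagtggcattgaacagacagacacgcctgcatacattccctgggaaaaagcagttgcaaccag

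The motifs were chosen with the sequences in view, and a match is a description, not a binding site. The 7 motifs searched on both strands were AP-1 (TGAGTCA), the cAMP response element (TGACGTCA), the ETS core (CCGGAA), the EGR motif (GCGTGGGCG), a SOX motif (ACAAAG), the GC box (GGGCGG) and the TATA box (TATAAA). Gja1 held 1 AP-1 match, with its last base at position -52 from the start site, and no other member promoter held that motif. Of 33469 rat promoters of 300 bases, 4.63% hold it. Panx1 held 4 matches of the ETS core, which overlap in pairs because the core is read on both strands. Gja4, which had the lowest difference of the members, also held 1 match of it. Of all promoters 15% hold at least 1. Gjb1 held none of the 7 motifs, which says only that these letters are not in this window.

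By their brightest probe sets Gja1, Gjc1, Panx1 and Gjb2 were higher after tamoxifen, and Gjb1, Gjb6, Gja4 and Gja5 did not pass the threshold of the limma test, an adjusted p of 0.05 over all probe sets. The 4 higher genes spanned a wide range, from 6.04 log2 units for Gja1 to 0.31 for Gjb2. Because the members were chosen with this contrast in view, these values are a description and no p-value is given for a member. Of the 13 member probe sets 5 were higher and 0 were lower (0 also at an unadjusted p under 0.05), a share of 38.5% beside 24.4% of all 31042 probe sets. By gene, 4 of 8 were called beside 31.2% of all genes, and the groups did not overlap for 5 of 8 genes (49.1% of all genes) and for 6 of 13 probe sets (42.4% of all). The median difference was 0.26 log2 units for the 8 genes and 0.01 for all genes. Without any one of the tamoxifen arrays 1, 2 or 3 the numbers fell to 3 probe sets and 2 genes.

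**Figure D1:**
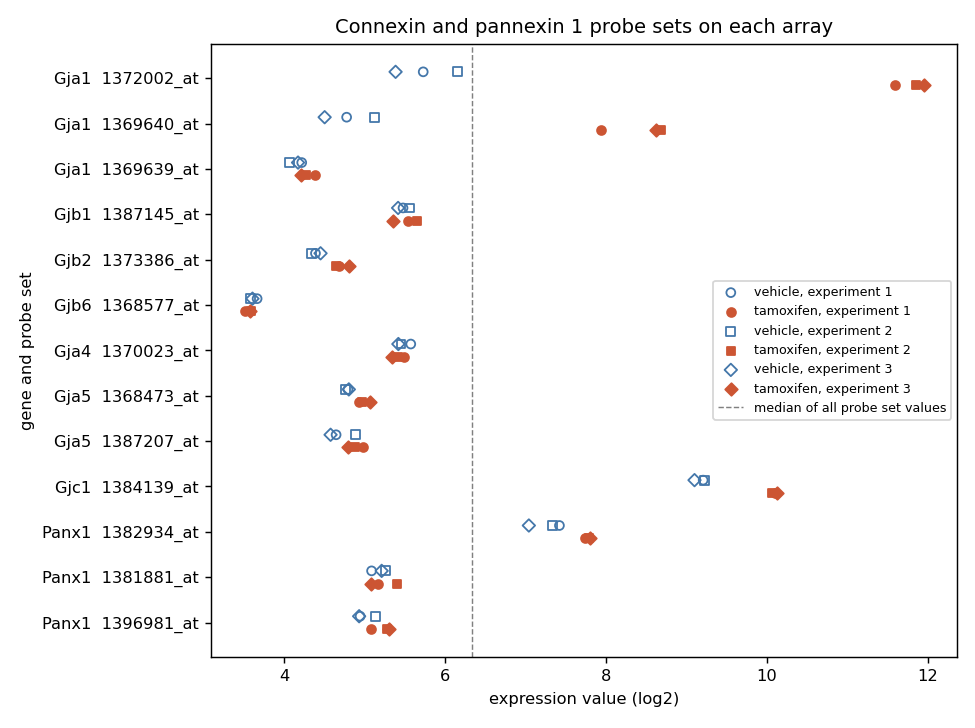
Expression values (log2, x axis) of the 13 connexin and pannexin 1 probe sets on each of the 6 arrays, open blue for vehicle and filled red for tamoxifen, with 1 marker shape per experiment and a dashed line at the median of all probe set values, 6.34. The called Gja1 probe sets and Gjc1 lie well apart between the groups, while most other probe sets stay to the left of the line in both.

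Gja1 had the largest difference of the family. Its brightest probe set (1372002_at) read 5.73, 6.15 and 5.38 in vehicle arrays 1 to 3 and 11.59, 11.85 and 11.95 in the tamoxifen arrays of the same experiments. All vehicle values lay below the median of all probe sets (6.34), and all tamoxifen values lay more than 5 log2 units above every vehicle value. The group means were 5.75 ± 0.38 and 11.80 ± 0.18 (SD, n = 3 each), a rise of 6.04 ± 0.20 log2 units (SE), or 66.0-fold. The 3 experiments gave 5.86, 5.70 and 6.56, and leaving out any 1 array gave 5.86 to 6.24.

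The other Gja1 probe sets were dimmer. Probe set 1369640_at went from 4.78, 5.12 and 4.50 to 7.94, 8.68 and 8.62, a rise of 3.62 ± 0.24, again without overlap. Of its 3 vehicle values 2 lie below the lower quartile of all values (4.82). Probe set 1369639_at stayed low, at 4.22, 4.06 and 4.17 in vehicle and 4.39, 4.27 and 4.21 in tamoxifen, a difference of 0.14 ± 0.09 with overlapping groups that did not pass. Its values lie below the lower quartile on all 6 arrays. The files do not give detection calls, so levels this low cannot be told from background, and the size of a rise from them is uncertain.

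Gjc1, which encodes connexin 45, lay above the median of all values on all 6 arrays. It read 9.21, 9.23 and 9.10 in vehicle and 10.10, 10.06 and 10.13 in tamoxifen. Both groups were tight and did not overlap. The rise was 0.92 ± 0.08, or 1.89-fold, with 0.90, 0.83 and 1.03 in the 3 experiments. In a test against a fold of 1.5 its call was lost.

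Gjb1, the myelin connexin, was low in both groups and differed little between them. All of its values lie below the median of all values (6.34), and a change could be hidden at so low a signal. It read 5.48, 5.55 and 5.41 in vehicle and 5.54, 5.64 and 5.35 in tamoxifen. The values interleave, and the lowest and the highest are both tamoxifen arrays. The difference was 0.03 ± 0.10, with a 95% interval of -0.22 to 0.28.

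Gjb2 and Gjb6 encode connexins 26 and 30, which often share channels and whose genes are neighbours on the chromosome. Gjb2 read 4.39, 4.34 and 4.45 in vehicle and 4.68, 4.64 and 4.80 in tamoxifen, a small difference of 0.31 ± 0.09 between groups that did not overlap. All 6 values lie below the lower quartile of all values and cannot be told from background. Its call was lost without any 1 of the 6 arrays (0.27 to 0.34) and with the experiment as a replicate block. It was also lost with median centring, quantile normalization or cyclic loess (0.28, 0.26 and 0.27). Gjb6 lay below it too, at 3.66, 3.58 and 3.60 against 3.52, 3.58 and 3.58, and differed by -0.06 ± 0.08 with overlapping groups.

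Gja4 and Gja5 encode connexins 37 and 40, best known from the endothelium of arteries. Gja4 read 5.57, 5.45 and 5.42 in vehicle and 5.49, 5.41 and 5.34 in tamoxifen, the lowest difference of the members at -0.07 ± 0.09. The brighter Gja5 probe set (1368473_at) read 4.79, 4.76 and 4.80 against 4.93, 4.97 and 5.07. All 3 vehicle values lie below the lower quartile of all values. These groups did not overlap, but the difference of 0.21 ± 0.08 did not pass. Its other probe set (1387207_at) gave 0.18 ± 0.11 with overlapping groups. Of 10 measured endothelial markers 9 stayed below the median of all values on all 6 arrays, among them Pecam1, Kdr, Tek and Vwf.

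Panx1 was intermediate. Its brightest probe set (1382934_at) read 7.42, 7.33 and 7.04 in vehicle and 7.74, 7.78 and 7.80 in tamoxifen. All tamoxifen values lay above all vehicle values, and the vehicle array of experiment 3 was the lowest. The rise was 0.51 ± 0.12, or 1.43-fold, with 0.32, 0.45 and 0.76 in the 3 experiments. Its call was lost without tamoxifen array 1 (0.53), 2 (0.51) or 3 (0.50). The 2 dimmer probe sets, 1381881_at and 1396981_at, differed by 0.03 ± 0.11 and 0.22 ± 0.11 with overlapping groups and did not pass.

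**Figure D2:**
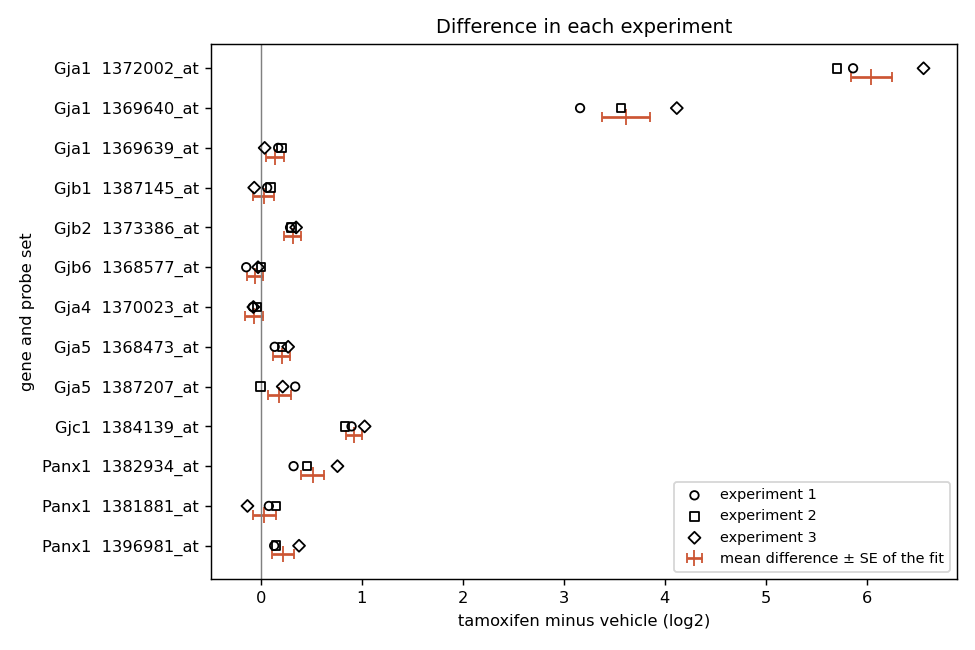
Tamoxifen minus vehicle (log2, x axis) for each member probe set, with 1 open marker per experiment and a red bar for the mean difference ± SE of the fit over 3 arrays per group. Experiment 3 has the largest difference of the 3 for both called Gja1 probe sets, for Gjc1 and for the brightest Panx1 probe set. The other probe sets lie near 0.

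Only 4 of the 13 probe sets, from Gja1, Gjc1 and Panx1, were above the median of all values on at least 3 arrays. For the Gja1 probe sets those were the tamoxifen arrays, so this filter kept them through the group in which they were high.

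Of 14 other connexin and pannexin genes, which the choice of members did not use, 5 were measured, and none passed (limma, 0 of 5 also at an unadjusted p under 0.05; 31.2% of all genes were called). They were Gja3 and Gjd2, known from lens and neurons, Gjb5, Gja6 and Panx3. Their differences ran from -0.15 ± 0.12 for Gja6 (95% interval -0.44 to 0.13) to 0.18 ± 0.16 for the brighter Gja3 probe set (95% interval -0.21 to 0.57). All 5 had overlapping groups. None of the 5 was above the median of all values on at least 3 arrays, so low signal limits what they can show.

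Genes of the proteins that anchor, deliver and remove gap junctions were divided: 5 of the 23 measured were called higher and 5 lower (43.5%, beside 31.2% of all genes). Their median was -0.12. Cdh2, the adhesion protein N-cadherin, rose by 1.52 ± 0.24 (limma, adjusted p = 0.00565), with 1.75 and 0.16 by the dimmer probe sets, of which 0.16 did not pass. Ezr, which encodes the membrane-to-actin linker ezrin, rose by 1.28 ± 0.12 (adjusted p = 0.000966). Cnst, which encodes consortin, a receptor for connexins in the trans-Golgi network, went from 9.53, 9.23 and 9.27 to 8.46, 8.36 and 8.18 without overlap. It fell by 1.01 ± 0.12 (limma, adjusted p = 0.00220), with -0.79 and -0.24 by its dimmer probe sets, the last of which did not pass. The endocytic adaptor gene Eps15 fell by 0.88 ± 0.13 (adjusted p = 0.00424), with -0.35, which did not pass, and -0.64 by its other probe sets.

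Tjp1 encodes ZO-1, the scaffold that binds the tail of connexin 43. By its brighter probe set it read 11.98, 11.75 and 11.94 in vehicle and 11.38, 10.89 and 11.11 in tamoxifen, and fell by 0.76 ± 0.14 (limma, adjusted p = 0.0101). Its dimmer probe set varied too much in vehicle to compare, from 5.50 in array 1 to 8.60 in array 2. Cav1, a caveolar protein that binds connexin 43, was below the lower quartile of all values by all 3 probe sets and did not pass (-0.06 ± 0.10 by the brightest). Ccn3, whose product also binds the connexin 43 tail, differed by -0.71 ± 0.67 and did not pass (limma, adjusted p = 0.514). Vehicle array 3 read 8.56 beside 5.81 and 6.20 on the other vehicle arrays, and without it the difference was 0.15. Without tamoxifen array 2 or 3 this list had 6 calls in place of 10.

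Of 10 measured kinases known to phosphorylate connexin 43, 1 rose and 2 fell (30%, median -0.14). Cdk1, the mitotic kinase, rose by 3.40 ± 0.43 (limma, adjusted p = 0.00269). Camk2d, a calcium/calmodulin-dependent kinase gene, fell by 1.06 ± 0.18 (limma, adjusted p = 0.00711), and its dimmer probe sets (-0.70 and -0.87) did not pass. Prkca, which encodes protein kinase C alpha, fell by 0.91 ± 0.12 (adjusted p = 0.00334). Dusp6, an ERK-induced phosphatase gene used to check the treatment labels, rose by 4.53 ± 0.08 without overlap (limma, adjusted p = 9.23e-06). The oestrogen receptor gene Esr1, whose product binds tamoxifen, rose by 0.49 ± 0.11 (limma, adjusted p = 0.0171). That call was lost on leaving out vehicle array 2 (0.48) or 3 (0.44) or tamoxifen array 3 (0.43). All Esr1 values lie below the median of all values (6.34), so the size of this rise is uncertain.

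Of 19 measured transcription factors and cofactors of Gja1 and Gjb1, 7 rose and 2 fell (47.4%, median 0.19). Those that rose included Pou3f1, by 1.65, and Tbx3, by 0.80 to 1.68 over all of its probe sets. Egr2, which with Sox10 activates the Schwann cell promoter of Gjb1, went from 5.77, 6.01 and 5.86 to 9.69, 10.12 and 10.18, a rise of 4.12 ± 0.15 (limma, adjusted p = 4.30e-05), and its dimmer probe set gave 1.66. Its cofactor gene Nab2 rose by 4.56 ± 0.12 and the related factor Egr1 by 4.51 ± 0.33 (limma, adjusted p = 1.41e-05 and 0.000475). Sox10 itself read 12.41, 11.09 and 11.26 in vehicle and 10.91, 10.59 and 10.54 in tamoxifen, with vehicle array 1 well above the others. Its difference of -0.90 ± 0.34 did not pass (limma, adjusted p = 0.104). With the experiment as a replicate block it did (adjusted p = 0.0300), as it did without both arrays numbered 1 (-0.61, adjusted p = 0.0257). Gjb1 itself differed by 0.03 ± 0.10 on the same arrays, all of them below the median of all values for its probe set.

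Of the 7 AP-1 subunit genes of that list, grouped after their values were seen, Fosl1 and Junb rose, Jun and Fosl2 fell, and Fos, Fosb and Jund did not pass. The latter 3 differed by 0.03, 0.50 and -0.03, and Fosb passed without vehicle array 1 (0.61) or tamoxifen array 1 (0.65). Fosl1 went from 6.61, 6.73 and 6.47 to 10.30, 10.47 and 10.43, a rise of 3.80 ± 0.10 (limma, adjusted p = 1.41e-05). Jun fell by 1.40 ± 0.34 from a high level of 13.83 ± 0.10 (limma, adjusted p = 0.0266), with -1.14 and -1.36 by its other probe sets. That call was lost when any vehicle array was left out (-1.35, -1.39 and -1.45 for arrays 1, 2 and 3), and also when tamoxifen array 2 was (-1.51). AP-1 binds the motif in capitals in the Gja1 sequence above. Binding was not measured.

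Among genes of myelin, where connexin 32 has its place, 1 of 14 measured rose and 4 fell (35.7%, median -0.24). Pmp22, which encodes a membrane protein of compact myelin, fell by 2.18 ± 0.33 (limma, adjusted p = 0.00481), with -2.18 by its other probe set. Mbp, the myelin basic protein gene, fell by 1.96 ± 0.29 (adjusted p = 0.00467), with -1.74 and -1.02 by its dimmer probe sets. Pmp2, a fatty acid binding protein of myelin, fell by 1.51 ± 0.42 (limma, adjusted p = 0.0430). Its call was lost on leaving out any vehicle array (-1.65, -1.38 and -1.49 for 1, 2 and 3), tamoxifen array 1 (-1.74) or 2 (-1.79). Without tamoxifen array 3 the difference was -0.99. The call was also lost with quantile normalization (-1.45) or cyclic loess (-1.41). Pals2, a scaffold of non-compact myelin, rose by 1.39 ± 0.26 (limma, adjusted p = 0.00989), and all of its other probe sets rose too, by 0.51 to 1.25.

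Of 22 measured genes that sense or break down the ATP released through pannexins and connexin hemichannels, 1 rose and 2 fell. That is 13.6%, beside 31.2% of all genes, and the median was 0.10. Only 6 of the 22 had a probe set above the median of all values on at least 3 arrays, so low signal limits this share. Entpd2, an enzyme that hydrolyses extracellular ATP, read 12.44, 12.59 and 13.45 in vehicle and 9.09, 9.35 and 10.38 in tamoxifen, a fall without overlap. It fell by 3.22 ± 0.40 log2 units (limma, adjusted p = 0.00242). The ATP-gated channel gene P2rx4 fell by 0.89 ± 0.12 (adjusted p = 0.00334), from 8.76, 8.66 and 8.68 to 7.97, 7.90 and 7.57. Entpd6 rose by 0.32 ± 0.08 (limma, adjusted p = 0.0253), a call lost with the replicate block (adjusted p = 0.0555) and on leaving out vehicle array 2 (0.33) or 3 (0.30) or any tamoxifen array (0.33, 0.32 and 0.30 for 1, 2 and 3). P2rx7, a receptor often studied with pannexin 1, differed by -0.59 ± 0.26 and did not pass (adjusted p = 0.149), and without vehicle array 1 it did (-0.86, adjusted p = 0.0223). The list had 5 calls without that array.

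Of 12 other large-pore channel genes, 4 rose and 2 fell (50%, median 0.10), all by less than 1 log2 unit. Vdac1, the mitochondrial outer membrane porin, rose by 0.68 ± 0.11 (limma, adjusted p = 0.00576), and its other probe set gave 1.35, which did not pass. Lrrc8e, a subunit of the volume-regulated anion channel, fell by 0.66 ± 0.12 (adjusted p = 0.0104). Ano6, which encodes a scramblase and channel, rose by 0.55 ± 0.15 (limma, adjusted p = 0.0359). This call was lost with median centring (0.52), on leaving out vehicle array 2 (0.49) or 3 (0.48), and on leaving out any tamoxifen array (0.50, 0.63 and 0.53 for 1, 2 and 3). Calhm2, which encodes an ATP-permeable channel, fell by 0.54 ± 0.12 (limma, adjusted p = 0.0199), a call lost without vehicle array 2 (-0.50) or 3 (-0.54). The list had 3 calls without vehicle array 2, 2 without vehicle array 3, and 3 without tamoxifen array 1 or 3. Of 17 tight junction genes none rose (1 at an unadjusted p under 0.05) and 1 fell. That is 5.88%, beside 31.2% of all genes, with a median of 0.03. The 1 that fell was Jam3, a junctional adhesion molecule, by 0.96 ± 0.14 (limma, adjusted p = 0.00445). Only 7 of the 17 had a probe set above the median of all values on at least 3 arrays, so low signal limits this share too. Tjp1, which encodes ZO-1 and fell as given above, was counted with the scaffolds and not in this list.

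**Figure D3:**
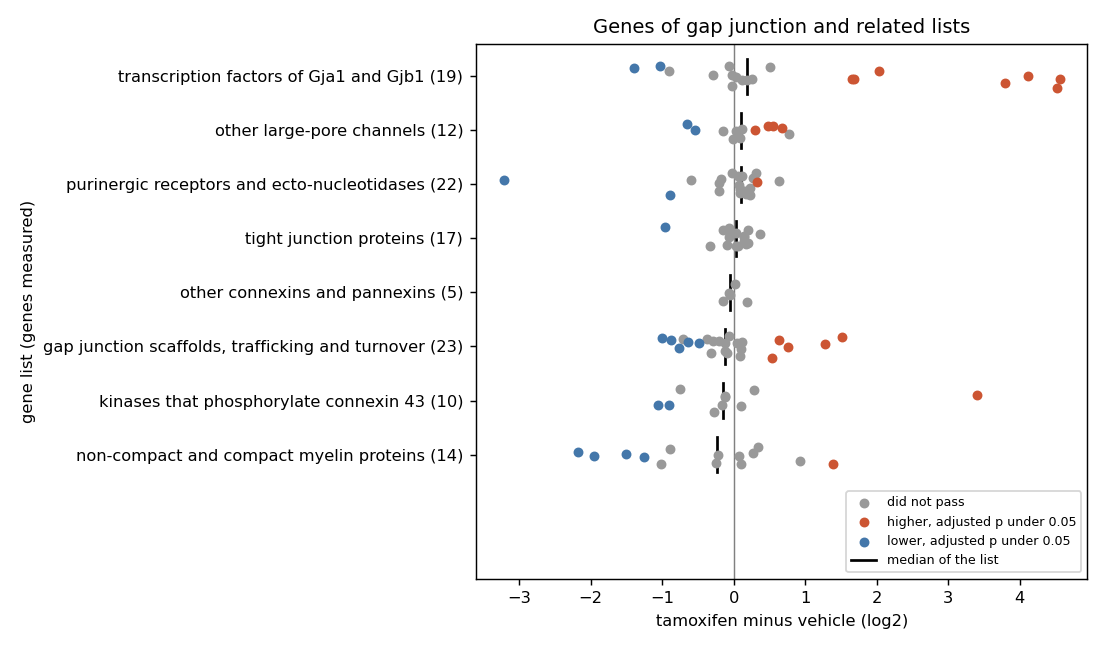
Tamoxifen minus vehicle (log2, x axis) for each measured gene of the 8 related lists, 1 point per gene by its brightest probe set, red and blue where the limma test called it higher or lower and grey where it did not, with a black bar at the median of each list. The regulators hold the points farthest to the right, Entpd2 lies farthest to the left, and the medians all lie between -0.24 and 0.19.

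The genes whose pattern over the 6 arrays was nearest to that of the brightest Gja1 probe set were Akr1b8, Sdc1, Areg, Mmd and Rftn1. Likeness was measured as the root mean square difference in log2 units after subtraction of each vehicle mean, and it was 0.49, 0.51, 0.51, 0.82 and 0.84. Their own rises were 6.23, 5.37, 5.51, 5.02 and 4.91, and the other Rftn1 probe set gave -0.02. For Gja4, which had the lowest difference of the members, the nearest were Asphd2, Trim6, Tafa1, Cilp2 and Phykpl, within 0.01 to 0.03. None of those 5 passed, their differences lay between -0.08 and -0.04, and their group means were all below the median of all values.

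Markers of the cell types the cultures could hold are given beside these results, and their part in them was not tested. Fewer cells of a type and less RNA per cell cannot be told apart in such samples. Of 7 measured Schwann cell markers none rose (0 at an unadjusted p under 0.05) and 2 fell, S100b (-0.76 ± 0.22; limma, adjusted p = 0.0459) and Ngfr (-1.53 ± 0.32; limma, adjusted p = 0.0159), and all 7 stayed above the median of all values on all 6 arrays. Leaving out any vehicle array (-0.75, -0.73 and -0.81 for 1, 2 and 3) or tamoxifen array 1 or 2 (-0.89 each) ended the S100b call, and leaving out tamoxifen array 2 (-1.54) ended that of Ngfr. Without tamoxifen array 3 the S100b difference was -0.50. The summed linear level of the 7 was 20070 to 28200 on the vehicle arrays and 9251 to 14260 on the tamoxifen arrays. Of 12 fibroblast markers, a cell type known to express Gja1, 4 rose (Fbln1, Pdgfra, Twist2 and Pi16, by 0.37 to 1.61). Another 3 fell (Col3a1, Col1a1 and Col1a2, at -2.38, -1.23 and -0.46), and all were named after their values were seen. The other probe sets of Fbln1 (0.11), Pi16 (0.28) and Col1a2 (-0.42) did not pass, while that of Col1a1 (-1.24) did. The call of Pi16 was lost on leaving out any array (0.29 to 0.42), that of Twist2 on leaving out any but tamoxifen array 1 (0.38 to 0.53), and that of Col1a2 on leaving out any but vehicle array 1 (-0.50 to -0.33). Those of Pdgfra (0.50) and Col3a1 (-2.13) were lost without tamoxifen array 2. The summed fibroblast level was 28550 to 31500 in vehicle and 20970 to 26860 in tamoxifen. The brightest were Col1a2 (13.26 ± 0.24 and 12.80 ± 0.06) and Postn (13.19 ± 0.65 and 13.58 ± 0.31), while Thy1, Pdgfra, Dcn, Lum, Dpt and Twist2 stayed below the median of all values on all arrays.

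For the other cell types the summed levels ran from 4143 to 4800 in vehicle and 2807 to 3537 in tamoxifen for 8 perineurial markers (1 rose and 1 fell; brightest Tjp1 and Slc2a1). They ran from 551 to 618 and 491 to 533 for 10 endothelial markers (0 rose, also at an unadjusted p under 0.05, and 1 fell; brightest Egfl7 and Esam). For 12 macrophage markers (Coro1a rose, by 1.45; brightest Laptm5 and C1qb) they ran from 472 to 529 and 581 to 634. For 10 smooth muscle and pericyte markers (brightest Tagln and Pdgfrb) they ran from 956 to 2864 and 836 to 1660, and for 10 mast cell and lymphocyte markers (brightest Tpsb2 and Cd2) from 357 to 367 and 375 to 382. In these last lists limma called 0 genes, with 2 and 1 higher at an unadjusted p under 0.05. Below the median of all values on all arrays were 10 of the macrophage markers and 9 of the mast cell and lymphocyte markers. So were 9 of the endothelial, 7 of the smooth muscle and pericyte and 5 of the perineurial markers. Low signal limits what these sums can show. Leaving out vehicle array 2 or 3 or tamoxifen array 2 or 3 ended the call of Slc2a1 (0.48 to 0.67), and leaving out tamoxifen array 1 or 3 that of Egfl7 (-0.47 each). With the replicate block the calls of Col1a2, Pi16, Twist2 and Slc2a1 were lost, and Pdgfrb (-1.10) and Cspg4 (0.39) passed. One library stood apart in RNA quality: over control transcripts, 3′ minus 5′ signal averaged 0.84 log2 units on vehicle array 1 and 0.16 to 0.27 on the rest. Without both arrays numbered 1, Gja1 rose by 6.13, Gjc1 by 0.93 and Panx1 by 0.61, and the call of Gjb2 (0.33) was lost, as were those of the markers Pdgfra, Col3a1, Col1a2, Pi16, Egfl7 and S100b.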

How the data were processed

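RNA of 6 cultures was hybridised to Affymetrix rat arrays. The authors deposited 1 log2 value per probe set and array, made with RMA per the submitters' processing notes (version not given in the sources used here). RMA pulls low signals together, which can make the folds of dim genes too small. The number of arrays limits the precision. Of 31099 probe sets, 57 manufacturer controls were left out. Names came from the platform annotation, with 20826 probe sets of 1 gene symbol, 436 of several (not named) and 9780 of none, and Entrez identifiers were matched to RefSeq (GRCr8, names and promoters only). For 14217 genes the brightest probe set (highest mean over the 6 arrays) stood for the gene. Signals of different probe sets share no exact scale: "brightest" only chooses the probe sets and markers named, and no abundance of one gene against another is read from it.

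Groups came from the sample titles. Tamoxifen was compared with vehicle by limma 3.58.1 (lmFit and eBayes, R 4.3.3), two-sided, without covariates, and calls needed a Benjamini-Hochberg adjusted p under 0.05 among the 31042 probe sets. Differences are tamoxifen minus vehicle. P-values set the difference of group means against the spread between arrays of a group, adjusted with that of all probe sets. Variation between experiments is part of that spread. An exact permutation test of 3 against 3 cannot go below 0.1 and was not used. The fit was run on simulated data with independent noise, 200 changed probe sets and no shared effect of an experiment. That checks the code only, since these arrays differ from such data. The members and lists were chosen with earlier results of these data known. Named were all members, all measured other connexins and pannexins, up to 4 called genes of largest change per list, fixed genes, the brightest markers, and the 5 genes nearest in pattern. LOC and RGD numbers were left out of that last choice.

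Arrays with the same number in their titles were read as the same experiment. The main fit and its calls did not use this pairing, which entered only as the replicate block. After subtraction of group means, arrays of the same number correlated at 0.26, 0.20 and 0.28. Arrays of different number were not compared in this way, so these values do not establish pairs. Alternatives were the experiment as a replicate block, each array left out, a filter on dim values, other scalings and variance models, a minimum fold of 1.5 and other ways to join probe sets. Leaving out both arrays numbered 1 was added after seeing the data.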

Additional observations from a re-analysis of the deposited data

How the results depend on the processing

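The differences of the called Gja1 probe sets kept their direction and call under all alternatives run. The difference of Gjc1 did so under all but the minimum fold of 1.5. With the experiment as a replicate block 4 member probe sets and 3 member genes were called, no count of calls moved by over 1.5 times, and among the genes named in the report no call changed beyond those given there. Leaving out 1 array gave 3 to 4 member probe sets and 2 to 3 member genes, 6 to 9 scaffold genes, 2 to 5 purinergic genes, 2 to 5 large-pore channel genes, and 3097 to 4093 of all genes. A test against a fold of 1.5 called 2 member probe sets, 1 member gene, 1 scaffold gene, 1 kinase gene, 2 myelin genes, 1 purinergic gene, 0 large-pore channel genes, 0 tight junction genes and 883 of all genes, by its own construction. With the mean of the probe sets of a gene 5 kinase genes were called; the cause was not tested. Low signal limits what the other members can show: 9 of 13 member probe sets did not reach the filter on dim values.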
